A study of Mus musculus with 12 samples.

Results

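The genes described are 9 of the 56748 listed in the count matrix, taken by symbol: Nlrp3, Pycard, Casp1, Casp4, Gsdmd, Casp8, Ripk1, Ripk3 and Mlkl, which encode the core proteins of pyroptosis and necroptosis. All 9 matched 1 Ensembl identifier each and were among the 15033 genes tested. They were measured by bulk RNA sequencing in bone marrow-derived macrophages (BMDM) from wild-type female C57BL/6J mice bought at an age of 10 to 12 weeks. BMDM are macrophages grown in culture from bone marrow. The paper states sex and age for its purchased mice as a whole, and its BMDM methods name only the strain of the donors. All groups shared differentiation with M-CSF (20 ng/mL) and 48 hours of M2-like polarization with IL4 (10 ng/mL), and differed in the 72 hours that followed, with 3 libraries for each of 4 conditions.

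The untreated control received no addition. The eGFP supernatant was medium from YUMM5.2 eGFP control cells and the Ifnb1eGFP supernatant was medium from YUMM5.2 Ifnb1eGFP cells, both kept with Dox at 1 μg/mL for 72 hours. YUMM5.2 is a mouse melanoma line, here carrying a lentiviral Dox-responsive promoter in front of eGFP alone or of Ifnb1 and eGFP. The Ifnb1eGFP supernatant was diluted to 1500 pg/mL of IFNβ, and eGFP supernatant was diluted as much as its counterpart. Recombinant protein (rIFNβ) was taken to be at 1500 pg/mL as well, although the paper's methods give this dose for the supernatant only. The design thus holds IFNβ with and without tumor cell medium, and each with a control of its own. The cells are a culture model of macrophages, and the labels name no death stimulus.

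Pyroptosis and necroptosis are forms of programmed cell death in which the plasma membrane is opened and cell contents are released. In pyroptosis a sensor such as NLRP3 assembles with the adaptor ASC (gene Pycard) and caspase-1 into an inflammasome, or caspase-11 (gene Casp4) senses bacterial lipopolysaccharide directly, and either caspase cleaves gasdermin D, which forms pores. In necroptosis RIPK1 and RIPK3 join through their RHIM domains and RIPK3 phosphorylates MLKL, which permeabilizes the membrane, and caspase-8 cleaves both kinases and so restrains this route. Transcript levels show how much of each message is present and not whether a protein is cleaved, phosphorylated or assembled.

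With IFNβ, Mlkl and Casp4 rose most among the 9 genes, to about the same degree from either source of IFNβ. For Ifnb1eGFP against eGFP supernatant, Mlkl rose 3.68-fold (95% confidence interval 3.26 to 4.16), Casp4 3.29-fold, Casp1 2.12-fold, Casp8 2.05-fold and Gsdmd 1.66-fold. Ripk1 rose 1.35-fold and Nlrp3 1.24-fold, Pycard passed the test at a 1.11-fold difference, and Ripk3 was the only 1 of the 9 with a lower mean (0.891-fold, adjusted p = 0.0706). In edgeR's quasi-likelihood test, with p adjusted over all genes tested by Benjamini and Hochberg's method, 8 of the 9 were higher at an adjusted p of at most 0.05, where 30.1% of all genes tested were higher and 25% were lower. For rIFNβ against untreated control 7 of the 9 were higher, where 30.7% of all genes were higher and 24.6% lower. The groups did not overlap, with IFNβ higher, for 7 of the 9 genes in the former comparison (32.4% of all genes) and for 8 in the latter (36.4%). The median log2 fold change of the 9 was 0.73 with Ifnb1eGFP supernatant and 0.82 with rIFNβ, beside 0.03 and 0.04 over all genes tested. In bulk samples fewer cells of a type and less RNA per cell cannot be told apart.

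Library totals ran from 31526034 to 45348457 counts, so that the lowest count of any of the 9 genes in a library was 613 (Casp4). The unit of a level is CPM, that is counts scaled to a normalized library size of 1000000. Macrophage markers summed to 14100 to 15300 CPM in the untreated libraries and 9780 to 9950 CPM with rIFNβ, with the lysozyme gene Lyz2 at 8810 to 9720 CPM and 3440 to 3500 CPM. The list did not move one way, since with rIFNβ Lyz2 (log2 fold change −1.44) and Itgam (−2.17) fell, Fcgr1 (4.46), Aif1 (3.20), Cd68 (0.50), Mertk (0.31) and Adgre1 (0.18) rose, and Csf1r did not pass the test (0.10, adjusted p = 0.0688). Arg1, an M2 marker, was at 0.208 to 0.877 CPM in all 12 libraries, while Mrc1, another, was at 609 to 839 CPM. Of the M2 markers listed, Chil3 rose with Ifnb1eGFP supernatant (log2 fold change 0.77) and with rIFNβ (0.67). Arg1, Retnla, Mrc1 and Mgl2 passed the test in neither comparison. Markers of neutrophils, dendritic cells, T and NK cells, B cells, melanoma and erythroid cells summed to at most 5.91 CPM per list. The 4 stromal markers summed to 27.6 to 77.6 CPM, and among them Dcn and Pdgfra were higher and Col1a1 lower with IFNβ. The part of stromal cells in the differences of the 9 genes was not tested. The second library of Ifnb1eGFP supernatant stood apart from its replicates (chi-square per degree of freedom of 54 and 23.3 against 5.34 to 18.6 for all other replicate pairs), and the second library of eGFP supernatant held a trace of interferon-stimulated transcripts, with 45.2 CPM of Irf7 beside 11 and 6.63 CPM in its replicates.

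Nlrp3 encodes the sensor that responds to ion efflux and lysosomal damage. It lies on chromosome 11 at 59432394-59457782 on the plus strand (GRCm39). Nlrp3 was at 29.8, 31.9 and 34.8 CPM in the untreated libraries and 27.3, 30.7 and 33.2 CPM with eGFP supernatant. With Ifnb1eGFP supernatant it was at 34.8, 36.9 and 41.3 CPM, and with rIFNβ at 41.2, 39.9 and 43.3 CPM. The 2 supernatants did not overlap, although the lowest Ifnb1eGFP library was only level with the highest untreated library. The log2 fold change was 0.31 ± 0.0861 (SE, adjusted p = 0.00986 by the same test) for the supernatants and 0.37 ± 0.0862 (adjusted p = 0.00364) for rIFNβ, which 29% and 26.9% of all genes tested exceeded.

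Pycard encodes ASC, the adaptor through which most inflammasome sensors recruit caspase-1. It lies on the minus strand of chromosome 7 at 127588558-127593039. In proportion its levels had the narrowest range among the 9 genes, at 46.8 to 51.7 CPM in the 6 libraries without IFNβ and 51.7 to 59.4 CPM in the 6 libraries with it. The supernatant groups touched at 51.7 CPM. The log2 fold change was 0.15 ± 0.0564 (adjusted p = 0.0473) with Ifnb1eGFP supernatant and 0.11 ± 0.0566 (adjusted p = 0.122) with rIFNβ. The first call was lost in 15 of 18 alternative fits, in 11 of them by leaving out 1 library, with adjusted p of up to 0.195.

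Casp1 encodes the protease that matures interleukin-1β and interleukin-18 and cleaves gasdermin D. It lies on chromosome 9 at 5298508-5307290, with Casp4 next to it at 5308828-5336783 on the same strand. Casp1 was at 118, 125 and 125 CPM untreated and at 117, 120 and 118 CPM with eGFP supernatant. It was at 281, 225 and 248 CPM with Ifnb1eGFP supernatant and at 270, 253 and 263 CPM with rIFNβ. Every library with IFNβ held more than every library without it. The log2 fold changes were 1.09 ± 0.0694 (adjusted p = 1.52e-07) with Ifnb1eGFP supernatant and 1.10 ± 0.0694 (adjusted p = 1.22e-07) with rIFNβ. The lowest of the Ifnb1eGFP libraries was the second, and without it the first value was 1.16, the highest over the libraries left out in turn.

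Casp4 encodes caspase-11, the sensor of cytosolic lipopolysaccharide in the non-canonical inflammasome. It was at 19.5, 22.1 and 20.6 CPM untreated and at 19.6, 22.7 and 19.6 CPM with eGFP supernatant. With Ifnb1eGFP supernatant it was at 72.9, 60.1 and 70.4 CPM, and with rIFNβ at 65.1, 62.6 and 63.4 CPM. The gap between the groups was far wider than the spread within them. The log2 fold changes were 1.72 ± 0.083 (adjusted p = 1.67e-08) and 1.62 ± 0.0833 (adjusted p = 2.32e-08), exceeded by 3.79% and 4.32% of all genes tested. Casp4 and Casp1 differed in the size of their change, and the ratio of Casp4 to Casp1, both per kb of exon, was 0.0985 to 0.113 in the 6 libraries without IFNβ and 0.144 to 0.17 in the 6 libraries with it.

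Gsdmd encodes gasdermin D, the pore-forming substrate of both caspases. It lies on the plus strand of chromosome 15 at 75733974-75739257. Gsdmd was at 51.9, 52.2 and 53.2 CPM untreated, at 51.4, 58.1 and 54.3 CPM with eGFP supernatant, at 87.8, 88.5 and 95.3 CPM with Ifnb1eGFP supernatant and at 90.8, 90.9 and 96.2 CPM with rIFNβ. The libraries with and without IFNβ did not overlap. Gsdmd rose by 0.73 ± 0.0523 on the log2 scale with Ifnb1eGFP supernatant (adjusted p = 3.85e-07) and by 0.82 ± 0.0526 with rIFNβ (adjusted p = 1.33e-07).

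**Figure D1:**
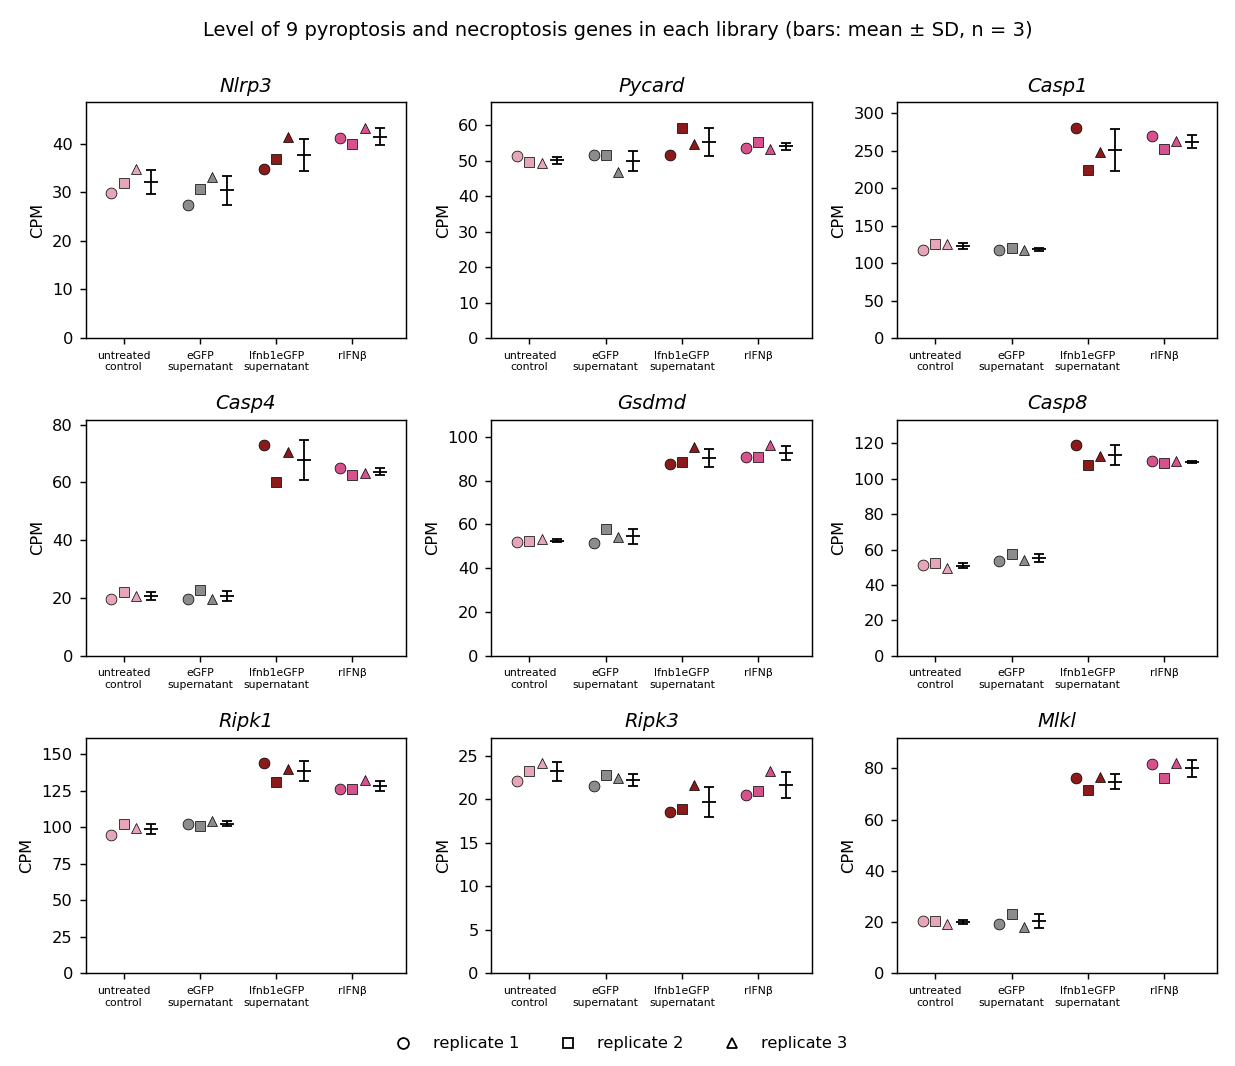
Level of each of the 9 genes in CPM (vertical axis, from 0) in the 12 libraries by condition, with a symbol per replicate number and black bars for the mean ± SD of 3 libraries. In Casp1, Casp4, Gsdmd, Casp8, Ripk1 and Mlkl the 6 libraries with IFNβ lie above the 6 without it, while Ripk3 stays between 18.6 and 24.2 CPM.

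Casp8 encodes caspase-8, the initiator protease downstream of death receptors that also holds necroptosis in check. It lies on chromosome 1 at 58834375-58886665 on the plus strand. Casp8 was at 51, 52.4 and 49.4 CPM untreated and at 53.6, 57.5 and 54.3 CPM with eGFP supernatant. It was at 119, 108 and 113 CPM with Ifnb1eGFP supernatant and at 110, 109 and 110 CPM with rIFNβ. No library with IFNβ overlapped one without it, and the SD among the rIFNβ libraries was 0.527 CPM. The log2 fold changes were 1.04 ± 0.0464 (adjusted p = 8.91e-09) and 1.11 ± 0.0466 (adjusted p = 4.97e-09).

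Ripk1 encodes the kinase and scaffold that stands between survival signaling and death downstream of TNF receptors. It lies on chromosome 13 at 34186141-34221130 on the plus strand. Ripk1 was at 94.8, 102 and 99.4 CPM untreated, at 102, 101 and 104 CPM with eGFP supernatant, at 144, 131 and 140 CPM with Ifnb1eGFP supernatant and at 126, 126 and 132 CPM with rIFNβ. All libraries with IFNβ were higher than all without it. The log2 fold changes were 0.43 ± 0.0456 (adjusted p = 9.14e-06) and 0.37 ± 0.0457 (adjusted p = 3.08e-05). Serpinb6a overlaps Ripk1 on the opposite strand, and since the strand setting of the counting is not given in the sources used here, its reads cannot be told apart from those of Ripk1 with certainty.

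Ripk3 encodes the kinase that activates MLKL. It lies on the minus strand of chromosome 14 at 56022452-56026324. Ripk3 was at 22.1, 23.3 and 24.2 CPM untreated and at 21.5, 22.8 and 22.4 CPM with eGFP supernatant. It was at 18.6, 18.9 and 21.7 CPM with Ifnb1eGFP supernatant and at 20.5, 21 and 23.3 CPM with rIFNβ. The groups overlapped in both comparisons. The log2 fold change was −0.17 ± 0.0724 (adjusted p = 0.0706) with Ifnb1eGFP supernatant and −0.10 ± 0.0725 (adjusted p = 0.248) with rIFNβ. The first value passed the test with the replicate number as a block (−0.17, adjusted p = 0.0159), under RLE factors (−0.20, adjusted p = 0.0445) and without the third Ifnb1eGFP library (−0.24, adjusted p = 0.0165). The 95% confidence intervals, −0.33 to −0.01 and −0.26 to 0.05, hold no rise of more than 1.04-fold.

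Mlkl encodes the pseudokinase that carries out necroptosis at the membrane. It lies on the minus strand of chromosome 8 at 112036296-112065168. Mlkl was at 20.3, 20.5 and 19.1 CPM untreated and at 19.4, 23.3 and 18.2 CPM with eGFP supernatant. It was at 76.2, 71.6 and 76.7 CPM with Ifnb1eGFP supernatant and at 81.7, 76.3 and 82.2 CPM with rIFNβ. The lowest library with IFNβ held more than 3 times the CPM of the highest library without it. The log2 fold changes were 1.88 ± 0.0803 (adjusted p = 6.3e-09) and 2.00 ± 0.0809 (adjusted p = 3.48e-09), exceeded by 3.39% and 3.21% of all genes tested. The study's own thresholds were a log2 fold change of at least 2 in size and an adjusted p of at most 0.01. At these none of the 9 genes was called for the supernatants, where 5.39% of all genes were. Mlkl alone was called for rIFNβ, where 5.77% were. Its log2 fold change lay at the threshold, and ran from 1.96 to 2.04 over the alternative fits.

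**Figure D2:**
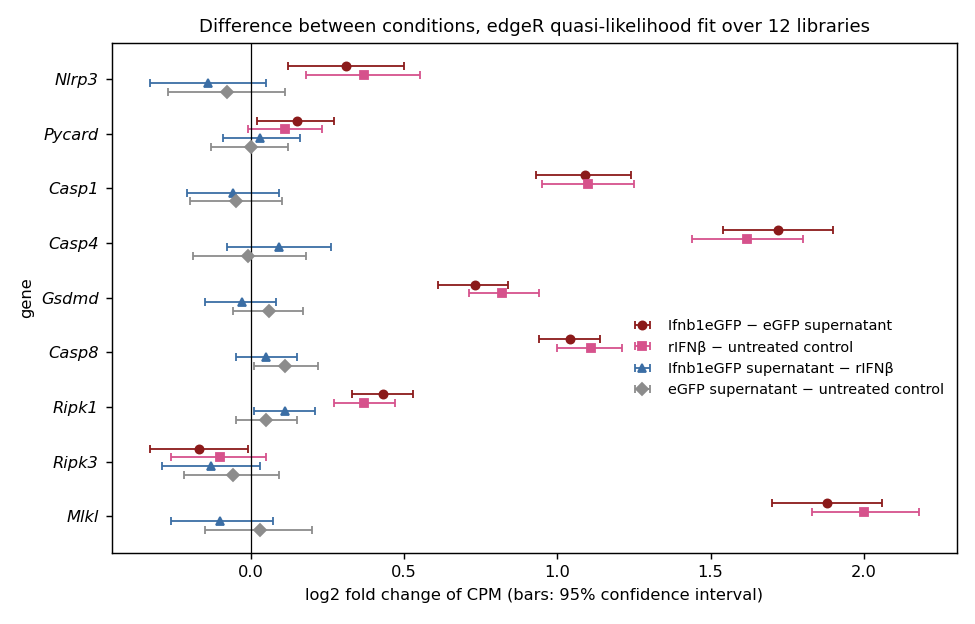
Log2 fold change of CPM (horizontal axis) of each of the 9 genes (vertical axis) in 4 comparisons, as points with 95% confidence intervals from the fit over 12 libraries. Both comparisons that differ in IFNβ run from −0.17 and −0.10 for Ripk3 to 1.88 and 2.00 for Mlkl, and the comparisons that do not differ in it lie between −0.14 and 0.11.

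Start-site sequences are shown for Ripk1 and Ripk3, which hold the motif searched, and for Mlkl, the gene with the largest rise, which holds none. Many genes induced by type I interferon carry an interferon-stimulated response element (ISRE) near their start. Of the 9 genes 8 had a promoter in the RefSeq table (GRCm38.p6, 250 bases before to 50 after the start), with 11 promoters in all. Each was found once, without a mismatch, on its GRCm39 chromosome, and GRCm39 positions are given. The letters searched on both strands were GAAANNGAA (TTCNNTTTC on the other strand), the core of an ISRE, which was in 8.56% of all 32851 promoters of the table. Among the promoters of the 9 genes the ISRE core was found in 1 of the 2 of Ripk1 and in that of Ripk3.
Ripk1, chr13:34186607-34186906, plus strand: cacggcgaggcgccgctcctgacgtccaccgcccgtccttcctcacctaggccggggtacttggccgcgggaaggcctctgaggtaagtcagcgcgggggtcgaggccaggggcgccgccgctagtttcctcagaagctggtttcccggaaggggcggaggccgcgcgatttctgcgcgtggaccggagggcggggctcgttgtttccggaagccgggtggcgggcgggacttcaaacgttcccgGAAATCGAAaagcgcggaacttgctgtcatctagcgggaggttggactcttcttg
Ripk3, chr14:56026265-56026564, minus strand: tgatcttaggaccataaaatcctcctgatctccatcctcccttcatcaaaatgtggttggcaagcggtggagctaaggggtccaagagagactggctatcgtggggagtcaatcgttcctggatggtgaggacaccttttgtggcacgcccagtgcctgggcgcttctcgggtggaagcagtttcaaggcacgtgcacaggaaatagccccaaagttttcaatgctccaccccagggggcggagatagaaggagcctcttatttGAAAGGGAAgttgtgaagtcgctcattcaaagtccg
Mlkl, chr8:112064788-112065087, minus strand: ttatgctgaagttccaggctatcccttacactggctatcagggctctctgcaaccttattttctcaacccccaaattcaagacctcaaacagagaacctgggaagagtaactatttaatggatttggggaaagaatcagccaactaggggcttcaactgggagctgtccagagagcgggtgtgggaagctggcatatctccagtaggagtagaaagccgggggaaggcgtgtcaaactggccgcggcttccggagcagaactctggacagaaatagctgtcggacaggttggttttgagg
Capitals mark the ISRE core. In Ripk1 it begins 5 bases before the start site. In Ripk3 it begins at base 15 of the transcript. The promoters of Casp1, Casp4, Casp8, Nlrp3 and Pycard held no match in this window. Of the 2 genes with the letters, Ripk1 passed the test with both sources of IFNβ, and Ripk3 did not in the main fit. Sites outside the window or with another spacing were not searched. A link between the letters and the levels was not tested.

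The levels of different genes were compared per kb of exon. The length was the union of all annotated exons, 4235 bases for Pycard and 10993 for Ripk1, which can exceed the length of the transcripts expressed. The order between genes depends on this length, and no other length was tried. Casp1 was the highest of the 9 in all 4 conditions, at 39.1 ± 1.36 CPM per kb untreated (SD, n = 3) and 83.6 ± 2.76 CPM per kb with rIFNβ. Untreated cells held Mlkl lowest at 3.45 ± 0.127 CPM per kb and Casp4 next at 3.95 ± 0.256 CPM per kb. With rIFNβ Mlkl was at 13.8 ± 0.551 CPM per kb, above Pycard (12.8 ± 0.208) and Casp4 (12.1 ± 0.252), and Ripk3 was last at 8.53 ± 0.594 CPM per kb. Pycard, Casp4, Mlkl and Ripk1 lay between 12.6 and 13.1 CPM per kb with Ifnb1eGFP supernatant, and each overlapped the next in its libraries. Gsdmd was above Casp8 in untreated cells without overlap, overlapped it with eGFP supernatant, and was below it without overlap under both IFNβ conditions.

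**Figure D3:**
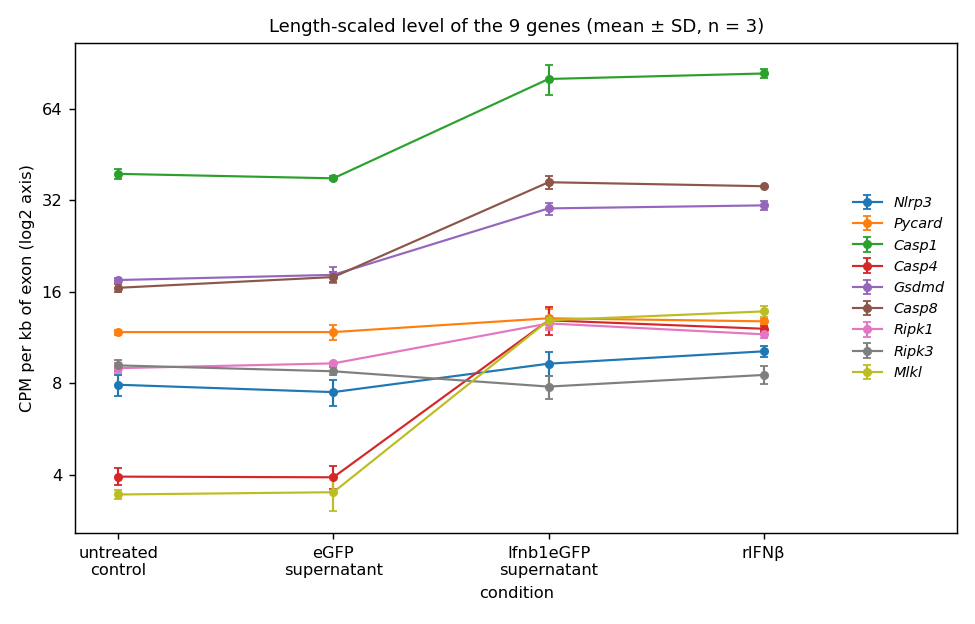
Level of the 9 genes in CPM per kb of exon (vertical axis, log2 scale) in the 4 conditions, as means with SD bars over 3 libraries. The order between genes depends on the union of exons used as length. Mlkl and Casp4 move from the bottom of the order (3.45 and 3.95 untreated) to its middle (13.8 and 12.1 with rIFNβ), and Ripk3 ends last (8.53).

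Ratios within a library show the same shift between partners without relying on the scaling between libraries. They are formed from the same counts and are not separate evidence. The size of a ratio depends on the exon lengths used, and its proportional change between conditions does not. Mlkl per Ripk3, the substrate per kinase, was 0.346 to 0.448 in the 6 libraries without IFNβ and 1.54 to 1.79 in the 6 with it. Casp8 per Ripk3 was 1.68 to 2.07 without and 3.86 to 5.25 with IFNβ. Ripk1 per Ripk3 went from 0.945 to 1.1 without to 1.3 to 1.78 with it. None of these ranges overlapped. In the inflammasome Casp1 per Pycard was 3.06 to 3.41 without and 5.13 to 7.36 with IFNβ, the low end being the second Ifnb1eGFP library. Casp1 per Gsdmd changed least of the pyroptosis pairs, from 1.98 to 2.29 without to 2.44 to 3.07 with IFNβ. Cflar encodes c-FLIP, which binds caspase-8 and limits its death-inducing activity, and Cflar per Casp8 was 0.535 to 0.624 without and 0.451 to 0.51 with IFNβ.

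**Figure D4:**
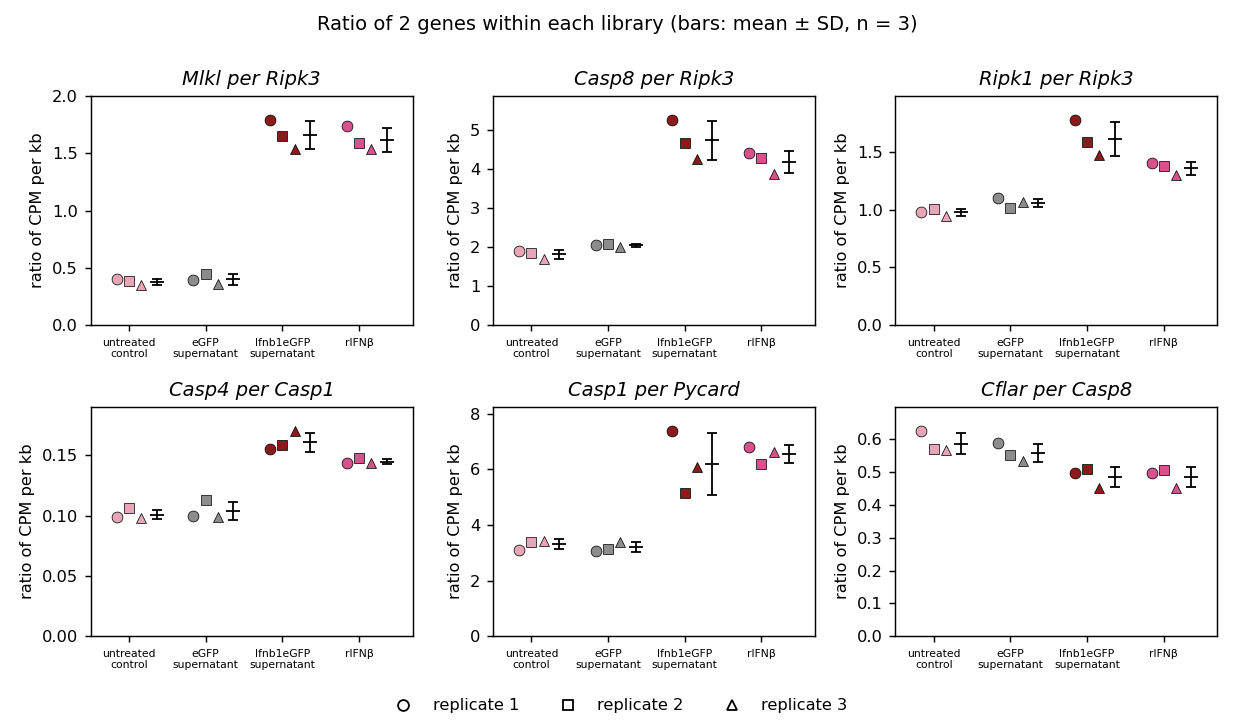
Ratio of 2 genes within each library, both in CPM per kb of exon (vertical axes, from 0), by condition, with a symbol per replicate number and black bars for the mean ± SD of 3 libraries. The ratios of Mlkl, Casp8 and Ripk1 to Ripk3, of Casp4 to Casp1 and of Casp1 to Pycard are higher in every library with IFNβ than in every library without it, and that of Cflar to Casp8 is lower.

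The source of IFNβ was compared by Ifnb1eGFP supernatant against rIFNβ, groups that also serve in the comparisons above and whose doses were taken as equal. None of the 9 genes passed the test, where 0.16% of all genes did, and 1 had an unadjusted p under 0.05 (8.57% of all genes). That gene was Ripk1, with a log2 fold change of 0.11 (95% confidence interval 0.01 to 0.21, adjusted p = 0.572). The largest difference in size was −0.14 for Nlrp3 (−0.33 to 0.05), and the widest interval of the 9 thus allows a ratio of 0.798 to 1.04. For Mlkl the interval was −0.26 to 0.07 and for Casp4 −0.08 to 0.26. The interaction of IFNβ and supernatant was called for none of the 9, and for 0% of all genes, with log2 values between −0.12 for Mlkl (−0.37 to 0.12) and 0.10 for Casp4 (−0.15 to 0.35). None of the 9 had an unadjusted p under 0.05 for the interaction (4.4% of all genes). Without the second Ifnb1eGFP library the number of genes called between the sources went from 24 to 1051 of 15033, but that of the 9 remained 0. DESeq2 called 0 of the 9 in these comparisons.

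Supernatant without added IFNβ was compared with the untreated control, and 0 of the 9 genes passed the test, where 0.299% of all genes did. Casp8 was the only one of them with an unadjusted p under 0.05 (8% of all genes) and the only one without overlap (15.5% of all genes), at a log2 fold change of 0.11 (0.01 to 0.22, adjusted p = 0.566). The other 8 lay between −0.08 and 0.06. Over both IFNβ states together, 0 of the 9 passed the test for supernatant, where 0.905% of all genes did, with Casp8 at 0.08 (adjusted p = 0.382) and Ripk1 at 0.08 (adjusted p = 0.361), the 2 with an unadjusted p under 0.05 (11.4% of all genes). DESeq2 called none of the 9 in either comparison. In the second eGFP library, with the trace of interferon-stimulated transcripts, the median of the 9 genes was 0.07 on the log2 scale above its replicates. Mlkl stood most above them, by 0.31. Ripk3, which did not rise with IFNβ, was also highest there, at 22.8 CPM beside 21.5 and 22.4 CPM. A link to the trace was not tested. Without this library Mlkl rose by 1.99 with Ifnb1eGFP supernatant.

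The wider pathway was read from 74 genes in 5 lists by role, of which 66 were tested. Outside the 9 genes 57 were tested, and with Ifnb1eGFP supernatant 32 were higher, 8 lower and 17 did not pass the test, beside 30.1% higher and 25% lower among all genes. With rIFNβ 34 were higher, 9 lower and 14 did not pass, beside 30.7% higher and 24.6% lower among all genes. The median log2 fold changes of these 57 genes were 0.36 and 0.39. The counts per list below include those of the 9 genes that the list holds.

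Among inflammasome sensors and adaptors 10 of 15 tested, with Nlrp3 and Pycard among them, were higher and 1 was lower with Ifnb1eGFP supernatant. Of all genes 30.1% were higher and 25% lower. Aim2, the sensor of cytosolic DNA, was at 31.5 to 37.2 CPM with eGFP supernatant and 52.1 to 64.7 CPM with Ifnb1eGFP supernatant (log2 fold change 0.74, adjusted p = 8.76e-06). Naip5, a receptor for bacterial flagellin, rose by 0.79 (adjusted p = 4.42e-06), although Naip1, Naip2, Naip5 and Naip6 are near copies among which reads may be divided. Mefv, which encodes pyrin, was at 0.478 CPM or less in every library, and its call (log2 fold change 1.45, adjusted p = 0.0337) was lost in several alternative fits. Nlrp10 was the 1 that fell, from 18.4 to 21.1 CPM to 9.19 to 11.5 CPM (log2 fold change −0.93, adjusted p = 4.7e-06).

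Among inflammatory caspases, gasdermins and membrane rupture genes 6 of 9 tested were higher and 2 lower with Ifnb1eGFP supernatant, beside 30.1% and 25% of all genes. Casp1, Casp4 and Gsdmd were among the 6. Casp12, a caspase gene of the same cluster as Casp1 and Casp4, went from 0.303 to 0.512 CPM to 1.96 to 2.93 CPM (log2 fold change 2.59, adjusted p = 6.41e-06). Gsdme, a gasdermin cut by caspase-3, rose by 0.47 (adjusted p = 0.000209). Serpinb1a, an inhibitor of inflammatory caspases and neutrophil proteases, fell by 1.19 on the log2 scale (adjusted p = 7.31e-05), and Chmp3, of the ESCRT-III membrane repair machinery, fell by 0.18 (adjusted p = 0.0155). The call of Chmp3 was lost with only the compared groups in the fit (adjusted p = 0.0589) and without the second or the third Ifnb1eGFP library (log2 fold changes −0.12 and −0.17). Ninj1, needed for the final rupture of the plasma membrane, did not pass the test (log2 fold change −0.05, −0.44 to 0.34, adjusted p = 0.824), with Ifnb1eGFP libraries at 75.4, 139 and 93.7 CPM. Without the second of them the value was −0.33 with an adjusted p of 0.0311.

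In the interleukin-1 family the cytokine Il18 and its soluble inhibitor Il18bp rose together. Il18 was at 4.04 to 4.75 CPM with eGFP supernatant and 18.4 to 21.1 CPM with Ifnb1eGFP supernatant (log2 fold change 2.16, adjusted p = 4.2e-09), and with rIFNβ at 18.8 to 20.5 CPM. Il18bp went from 4.22 to 5.58 CPM to 66.7 to 68 CPM (log2 fold change 3.80, adjusted p = 1.54e-10). Per kb of exon Il18bp was 0.593 to 0.806 of Il18 in the 6 libraries without IFNβ and 1.92 to 2.24 of it in the 6 with IFNβ. Il1b, the other main substrate of caspase-1, stayed under 1 CPM, at 0.191 to 0.477 CPM without and 0.505 to 0.825 CPM with IFNβ (log2 fold change 0.95, adjusted p = 0.0187 for the supernatants), on 38 counts or fewer a library. The call of Il1b was lost under DESeq2 (adjusted p = 0.0544) and without the third Ifnb1eGFP library (0.071) or the first or second eGFP library (0.0679 each). Il1rn, the receptor antagonist of interleukin-1, fell by 0.45 on the log2 scale (adjusted p = 0.000728).

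Among the necroptosis core and RHIM proteins 3 of 10 genes were higher and 2 lower with Ifnb1eGFP supernatant, which is near the 30.1% and 25% among all genes, and the median log2 fold change was −0.01. Zbp1, a RHIM protein that senses Z-form nucleic acids and can activate RIPK3, was at 3.34, 5 and 14.2 CPM with eGFP supernatant and at 249 to 268 CPM with Ifnb1eGFP supernatant (log2 fold change 5.12 ± 0.396, adjusted p = 7.25e-07). Its level per Ripk3 went from 0.0879 to 0.367 in the libraries without IFNβ to 7.26 to 8.45 in those with it, the highest of the former being the second eGFP library. Mlkl and Ripk1 were the others that rose. Hsp90ab1, a chaperone of RIPK3 and MLKL, fell by 0.28 on the log2 scale (adjusted p = 6.19e-05), and Ppm1b, a phosphatase that acts on RIPK3, fell by 0.15 (adjusted p = 0.0278). The call of Ppm1b was lost with library totals only (adjusted p = 0.0529), with only the compared groups in the fit (0.0735) and without the second or the third Ifnb1eGFP library or the first or the third eGFP library (0.0563 to 0.105).

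Among genes of the caspase-8 complex, death receptors and the ubiquitin brakes on RIPK1, 16 of 24 were higher and 2 lower with Ifnb1eGFP supernatant. Casp8 was among the 16, and of all genes 30.1% were higher and 25% lower. Fadd, the adaptor of caspase-8, rose by 0.43 (adjusted p = 0.00027) and Cflar by 0.84 (adjusted p = 1.54e-06), both less than Casp8. Rnf31, the catalytic subunit of the linear ubiquitin ligase, rose by 1.40 (adjusted p = 2.22e-06). Ikbkg, which encodes NEMO, fell by 0.54 (adjusted p = 4.09e-07). Tnfaip3, which encodes the ubiquitin-editing enzyme A20, fell by 1.59 (adjusted p = 1.79e-08). Tnfaip3 was also the 1 gene of the 66 called for supernatant over both IFNβ states, at a log2 fold change of 0.27 (adjusted p = 0.0475), with 68.5 to 83.8 CPM untreated against 95.7 to 109 CPM with eGFP supernatant and 30.2 to 31.9 CPM with rIFNβ against 32.5 to 35.4 CPM with Ifnb1eGFP supernatant. This call was lost when any 1 of 11 libraries was left out, with adjusted p of up to 0.136.

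**Figure D5:**
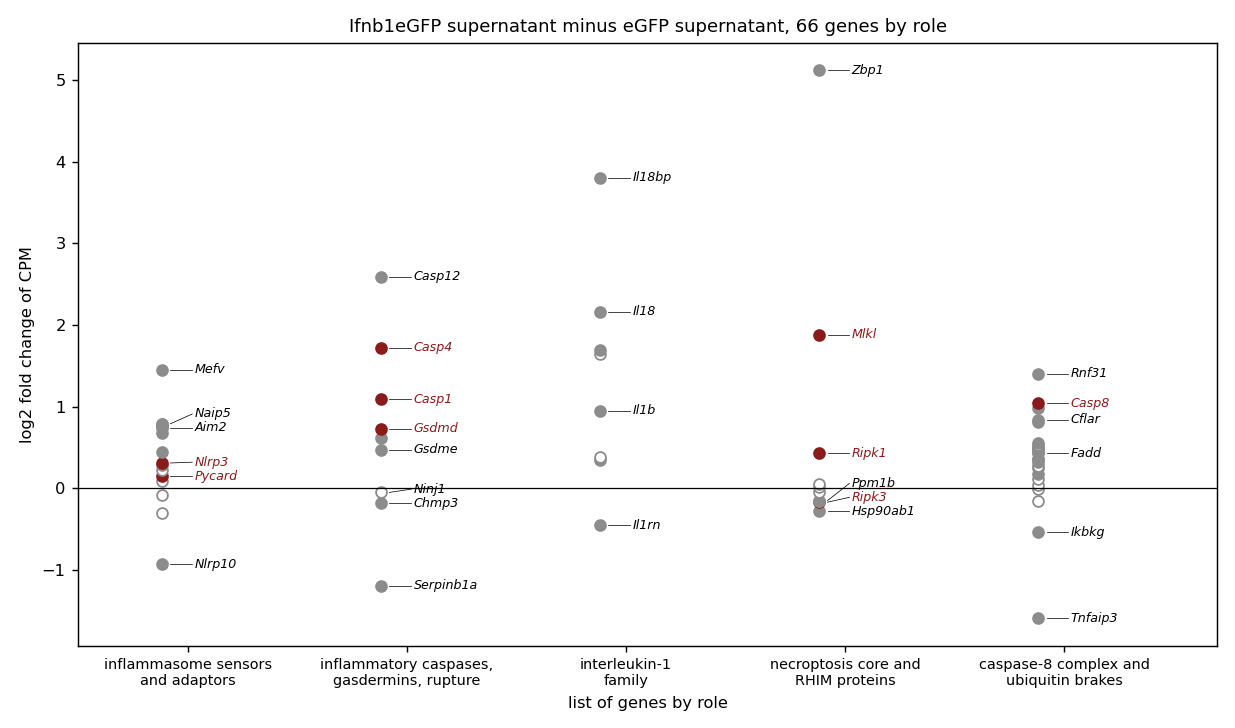
Log2 fold change of CPM for Ifnb1eGFP minus eGFP supernatant (vertical axis) of 66 genes in 5 lists by role (horizontal axis), with the 9 genes in dark red, the other genes in gray, filled points for an adjusted p of at most 0.05 and names for the genes given in the text. Zbp1 (5.12), Il18bp (3.80), Casp12 (2.59) and Il18 (2.16) lie above Mlkl (1.88), and Tnfaip3 (−1.59) and Serpinb1a (−1.19) lie lowest.

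The pattern over the 12 libraries was compared between genes by Pearson's r of log2 CPM, as a description in which the points share the 4 conditions. Casp1, Casp4, Casp8, Gsdmd, Ripk1 and Mlkl each had between 2354 and 2733 genes with an r over 0.9, with Enpp4 and Tgtp1 nearest to Mlkl, Nono and Ly9 nearest to Casp4, and Lacc1 nearest to Casp1. Nlrp3 had 163 such genes, led by Arhgap4 (r = 0.975), and Pycard 65. Ripk3 had 1, mt-Atp6 (r = 0.904).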

How the data were processed

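Reads came from 12 libraries of M2-like BMDM, assigned to 4 conditions by sample title. After TruSeq Stranded Total RNA preparation the authors used RSEM (v1.3.3) and deposited its expected counts per Ensembl gene, not normalized. Positions follow GENCODE M39 (GRCm39), while the methods name the build by 2 names, GRCm39 and mm10. The design states 3 mice per condition. If replicates do not stem from separate mice, p-values measure only the spread between libraries.

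Expected counts were rounded. In edgeR 4.0.16 (R 4.3.3), filterByExpr kept 15033 genes, TMM set the scale, and a quasi-likelihood fit over all libraries was used, after it was tested on simulated data. SE is the size of the log2 fold change over the root of F. A prior count of 2 was used for log2 CPM, and the fit kept its default. Exon length is the union of exons. Pseudogenes or noncoding models overlap the 9 genes except Casp4 and Nlrp3.

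The genes, lists and markers were chosen with earlier results of these data known. The text names the 9 genes, 10 fixed genes of the lists and list genes called for supernatant. It also names the 2 largest rises and falls called in each list. Of the 2 genes nearest in pattern to each of the 9, only some are named, for Mlkl, Casp4, Casp1, Nlrp3 and Ripk3. The Mlkl promoter, Irf7 and the markers named were picked after values were seen. Protein sequences were not used here, and 1 planned motif is not reported here. Alternatives were DESeq2 1.42.0, RLE factors, library totals only, no filter, the replicate block, only the compared groups, the study's thresholds and each library left out. With 3 against 3 an exact permutation test cannot give a p under 0.1, so none was run.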

Additional observations from a re-analysis of the deposited data

How the results depend on the processing

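The calls of the 9 genes held in 935 of 954 alternative values over 6 comparisons. Of the rest, 15 were calls lost, all of Pycard, and 4 were gained, of Ripk3 and Pycard. Small differences that were not called changed sign in some fits, as Mlkl did for eGFP supernatant against untreated control (−0.09 to 0.1). Ripk3 was called with Ifnb1eGFP supernatant under RLE factors (adjusted p = 0.0445), with the replicate block (0.0159) and without the third Ifnb1eGFP library (0.0165), and Pycard with rIFNβ under library totals only (0.0481). At the study's thresholds the number of the 9 called went from 8 to 0 for the supernatants and from 7 to 1 for rIFNβ, since those thresholds ask for larger changes. Leaving out each library gave 7 to 8 and 7 calls in either direction. The 8 without the third Ifnb1eGFP library were 7 higher and 1 lower, which was Ripk3.

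Of the 66 genes in the lists, leaving out each library gave 0 to 4 calls between the IFNβ sources (main 0) and 0 to 5 for supernatant over both IFNβ states (main 1, and 0 with library totals only). The highest of both came without the second Ifnb1eGFP library. For eGFP supernatant against untreated control DESeq2, no filter and the replicate block each called 1, which was Tnfaip3 (main 0).

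Over all genes, the 24 called between the IFNβ sources became 116 with DESeq2, 41 with no filter, 48 with the replicate block, 2 with only the compared groups, and 4 to 1051 with libraries left out. The 45 called for eGFP supernatant became 205, 75, 122, 22 and 16 to 76 in the same order. The 136 for supernatant over both IFNβ states became 347 with DESeq2, 252 with the replicate block, and 55 to 531 with libraries left out. The 0 for the interaction became 11 with DESeq2 and 1 with no filter. The cause was not tested. The main fit did not treat libraries with the same replicate number as pairs. The correlation of their deviations was 0.0582 to 0.252, and over 0.1 in 13 of 18 pairs. Between different numbers it was −0.318 to 0.147, and over 0.1 in 1 of 36 pairs. Same-number libraries thus shared some deviation, and the labels do not say what the number stands for. With the replicate block the genes called for the supernatants went from 8281 to 8867. Among the 9 genes Ripk3 alone changed its call. Depth was not limiting for the 9 genes, but it was for Il1b and Mefv.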

Other observations

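Card19, Tradd, Cdc37 and Rbck1, all named after their values were seen, were the 4 genes of the lists that differed between the IFNβ sources when the second Ifnb1eGFP library was left out. Card19 was at 31.1, 57.9 and 36.7 CPM in the 3 Ifnb1eGFP libraries and at 46.7 to 53.7 CPM with rIFNβ. Tradd, an adaptor of TNF receptors, was at 9.25, 16.3 and 9.93 CPM beside 13.2 to 14.1 CPM, and Cdc37, a cochaperone of HSP90, at 95.8, 154 and 117 CPM beside 136 to 150 CPM. Rbck1, a subunit of the linear ubiquitin ligase, was at 45.9, 78.3 and 60.5 CPM beside 69.6 to 77.3 CPM. In each of the 4 the second library was above the rIFNβ libraries and the other two were below them. Among the 9 genes Casp1, Casp4, Casp8, Ripk1 and Mlkl went the other way, with the second library lowest of its group. Pycard was highest of its group in that library, at 59.4 CPM.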
